A study of Mus musculus with 16 samples.

Results

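Wnt ligands and the secreted proteins that hold them in check were followed in bulk RNA-seq of mouse knee joints before and after rupture of the anterior cruciate ligament. The 10 genes chosen were the ligands Wnt5a and Wnt16, the antagonist Sost, the Dickkopf genes Dkk2 and Dkk3, and the Wnt-binding decoys Sfrp1, Sfrp2, Sfrp4, Frzb and Wif1. They were taken by symbol from a table of 13733 genes, and 9 of the 10 were described; Sost, the osteocyte antagonist sclerostin, was not analysed here. All 9 passed the filter on low values, which kept 13173 genes.

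Right knees of 10-week-old mice were injured by a single tibial compression overload, a closed injury that needs no surgery. Joints were collected uninjured (D0) or 7 days after injury (D7) from C57BL/6 wildtype mice (WT) and from Trem2 KO mice (Trem2-/-). The study's methods describe the mice of both genotypes as male and name the knockout line C57BL/6J-Trem2em2Adiuj/J. TREM2 is a surface receptor of macrophages and related myeloid cells. Each of the 4 combinations of genotype and day had 4 libraries, and a group is named by both, as in WT D0. The labels disagree with each other on the preparation: the age is given as 10 weeks at injury and as 16 weeks in another field, and RNA is described both as coming from released joint cells and from homogenized whole joints. The protocol with whole joints speaks of control and T1DM mice, which are not groups of this series. For released cells the methods refer to the single-cell experiment, where CD45+ cells were sequenced apart, and whether cells of the bulk libraries were enriched for CD45 is not given in the sources used here. No source says that each library came from a separate mouse, so p-values measure the spread between these libraries, which may in part be technical.

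Wnt proteins are lipid-modified ligands that bind Frizzled receptors. With the co-receptors Lrp5 and Lrp6 they stabilize beta-catenin, which acts with Tcf/Lef factors in the nucleus, and with Ror2 or Ptk7 they act without beta-catenin. Dkk2 and sclerostin bind these co-receptors, Dkk3 is not established as a ligand of them, and Sfrp proteins, Frzb and Wif1 bind the Wnt ligands themselves. In the joint the pathway is known for its part in bone formation, and Frzb and Wif1 are known products of cartilage.

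The libraries held 11567073 to 32867818 reads on the listed genes, so that 3 reads stood for 0.101 to 0.250 CPM, the read count scaled to the size of the library. Trem2 was at 10.7 to 22.5 CPM in WT D7 and at 3.42 to 4.84 CPM in Trem2-/- D7, and at 2.51 to 5.61 CPM in WT D0 and 0.948 to 2.68 CPM in Trem2-/- D0. The genotypes were apart at D7 and overlapped at D0, where WT replicate 1 was below the highest Trem2-/- library. Which part of the gene the remaining reads cover cannot be read from gene totals. Summed fibroblast markers were 3947 to 21079 CPM in WT D0 and 33148 to 47668 CPM in WT D7, and 4437 to 12381 CPM in Trem2-/- D0 and 43919 to 55031 CPM in Trem2-/- D7. Summed osteoblast and osteocyte markers (mostly Col1a1) were 2026 to 19351, 31077 to 53380, 1397 to 3272 and 36737 to 59867 CPM in the same order of groups, and chondrocyte markers were 696 to 12480, 28420 to 72145, 1018 to 3894 and 26607 to 41031 CPM. Leukocyte markers went the other way, at 2869 to 5735, 1641 to 3530, 3575 to 6356 and 1282 to 1620 CPM. Within WT D0, replicates 1 and 4 had the highest sums of fibroblast markers and of osteoblast and osteocyte markers. In these bulk libraries, more cells of a type and more RNA per cell cannot be told apart.

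Promoter sequences were available for Wnt16, Dkk2, Sfrp2, Frzb and Wif1. The 4 below are shown because they set a member with the letters of a Tcf/Lef site that rose in both genotypes (Frzb) or in Trem2-/- (Dkk2) beside one that rose in Trem2-/- without them (Wnt16) and one with no called change (Wif1). Each runs 5′ to 3′ on the gene's strand from 250 bases before to 50 bases after the RefSeq start, in GRCm38.p6, with the Tcf/Lef letters in capitals. The positions are chr3:132085042-132085341 on the plus strand for Dkk2, chr2:80447347-80447646 on the minus strand for Frzb, chr6:22287977-22288276 on the plus strand for Wnt16 and chr10:121033754-121034053 on the plus strand for Wif1.
Dkk2: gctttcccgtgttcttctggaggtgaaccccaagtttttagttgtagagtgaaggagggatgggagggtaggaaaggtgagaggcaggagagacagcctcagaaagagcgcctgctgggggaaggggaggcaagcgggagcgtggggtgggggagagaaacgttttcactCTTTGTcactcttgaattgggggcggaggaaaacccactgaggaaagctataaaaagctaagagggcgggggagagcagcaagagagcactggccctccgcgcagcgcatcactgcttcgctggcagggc
Frzb: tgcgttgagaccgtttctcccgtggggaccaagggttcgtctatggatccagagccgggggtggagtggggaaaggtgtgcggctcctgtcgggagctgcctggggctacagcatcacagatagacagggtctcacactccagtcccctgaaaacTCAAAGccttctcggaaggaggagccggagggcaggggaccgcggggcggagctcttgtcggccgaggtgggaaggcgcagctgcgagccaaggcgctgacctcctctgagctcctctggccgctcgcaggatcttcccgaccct
Wnt16: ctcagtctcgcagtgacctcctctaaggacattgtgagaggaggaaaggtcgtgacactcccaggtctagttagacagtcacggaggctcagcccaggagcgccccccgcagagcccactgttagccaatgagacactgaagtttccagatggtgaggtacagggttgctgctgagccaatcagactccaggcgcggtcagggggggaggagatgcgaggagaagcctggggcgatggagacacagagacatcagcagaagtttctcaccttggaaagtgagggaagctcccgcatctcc
Wif1: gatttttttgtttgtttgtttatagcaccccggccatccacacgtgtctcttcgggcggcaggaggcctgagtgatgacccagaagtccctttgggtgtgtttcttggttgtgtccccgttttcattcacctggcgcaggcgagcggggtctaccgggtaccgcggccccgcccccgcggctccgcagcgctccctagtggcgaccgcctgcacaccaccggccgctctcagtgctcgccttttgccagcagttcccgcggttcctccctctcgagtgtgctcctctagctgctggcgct
The letters searched on both strands were CTTTGA or CTTTGT for Tcf/Lef, TGTGGT for Runx, TGANTCA for AP-1 and TATAAA for a TATA box. The Tcf/Lef letters stood at position 171 of the Dkk2 window and at position 156 of the Frzb window, in reverse orientation in the latter, counted from 1 at the 5′ end. They were in 31.2% of all 32851 RefSeq mouse promoters of this length, so their presence in 2 of 5 windows describes these sequences and says nothing of binding. TATAAA was found at position 219 of the Dkk2 window and, in reverse orientation, at position 19 of the Wif1 window, against 13.6% of all promoters. Runx and AP-1 letters, present in 16.8% and 7.81% of all promoters, were in none of the 5 windows. The windows held 57.7% to 66.0% G and C, against a median of 52.7% over all promoters.

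After injury, the members described here moved in 1 direction where they moved at all: upwards. In WT, Dkk3, Frzb and Wnt5a rose between D0 and D7, which is 3 of 9 members, while 15.9% of all genes tested rose and 12.6% fell. In Trem2-/-, 7 of 9 members rose (Dkk3, Sfrp1, Sfrp2, Wnt5a, Frzb, Wnt16 and Dkk2) against 26.0% of all genes that rose and 27.2% that fell. No member fell in either genotype by the limma test with Benjamini-Hochberg adjustment over all genes at an adjusted p under 0.05. The median log2 fold change over the 9 members was 0.29 in WT and 1.71 in Trem2-/-, beside −0.04 over all genes in each. Sfrp4 and Wif1 passed the test in neither genotype.

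**Figure D1:**
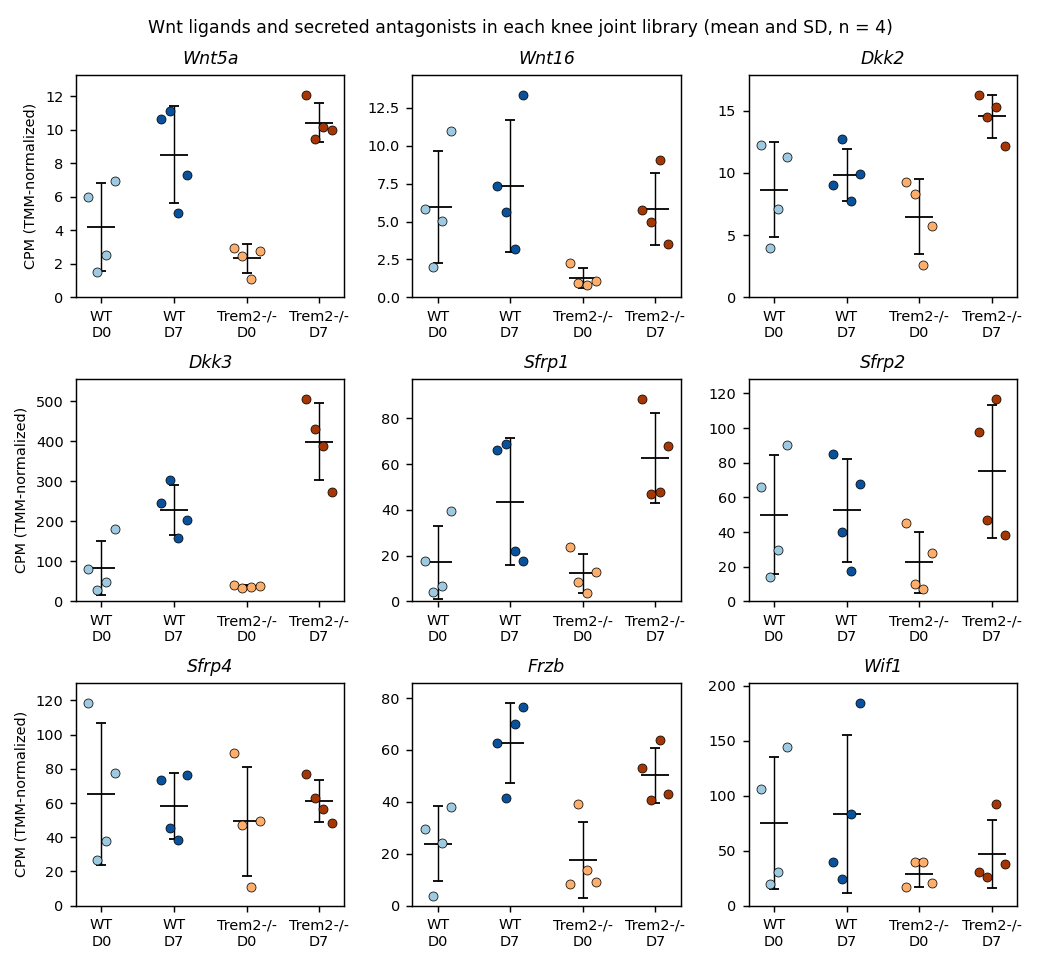
CPM of the 9 genes (linear vertical axes, one scale per gene) in the 16 libraries, 4 points per group, with the group mean as a bar and its SD as whiskers. In Trem2-/-, the D7 points of Wnt5a, Wnt16, Dkk2, Dkk3, Sfrp1 and Frzb all sit above the D0 points, and in WT those of Frzb do.

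Libraries of WT D0 and WT D7 did not overlap for 1 of 9 members (Frzb), and 12.9% of all genes had every D7 library above every D0 library in WT, with 9.34% entirely below. In Trem2-/- the days did not overlap for 6 of 9 members, against 26.1% of all genes entirely above and 26.3% entirely below. The count of 3 in WT rested on few libraries. It became 1, with Dkk3 as the called gene, when WT D0 replicate 2, WT D0 replicate 3, WT D7 replicate 1 or WT D7 replicate 4 was left out, and 4 without WT D0 replicate 4; in Trem2-/- it stayed at 6 or 7. Without WT D0 replicates 1 and 4 together, Dkk3, Frzb, Wnt5a and Sfrp1 passed in WT. With edgeR, or with the WT groups fitted alone, Dkk3 was the 1 member that passed there.

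Wnt5a (ENSMUSG00000021994, chromosome 14, 28504750 to 28527448, plus strand, GRCm38) encodes the ligand best known for signalling through Ror2. In WT it was at 5.98, 1.48, 2.50 and 6.92 CPM in replicates 1 to 4 at D0 and at 10.7, 11.1, 5.03 and 7.31 CPM at D7. The WT days overlapped, since WT D0 replicates 1 and 4 lay above the lowest WT D7 library, and 3 of 4 D7 libraries were above all of D0. In Trem2-/- it was at 2.96, 2.46, 1.07 and 2.78 CPM at D0 and at 12.1, 9.44, 10.2 and 10.0 CPM at D7. Here the days were far apart, and the D7 libraries were also close to each other. The log2 fold change was 0.97 ± 0.33 (SE) in WT (adjusted p = 0.0411, limma; exact permutation p = 0.114, two-sided, n = 4 per group) and 1.82 ± 0.33 in Trem2-/- (adjusted p = 0.000399, limma). With 4 against 4 libraries the exact test cannot give a p below 0.0286, and it gave that value for Wnt5a in Trem2-/-. The WT call of Wnt5a was narrow: its adjusted p was 0.0509 to 0.135 when any one of 9 libraries was left out (WT D0 replicates 2 and 3, WT D7 replicates 1, 2 and 4, and each Trem2-/- D7 library), with a log2 fold change down to 0.67. An exon of Gm2670 lies on the opposite strand, so reads from the pair cannot be told apart unless counting used strand, which is not given in the sources used here.

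Wnt16 (ENSMUSG00000029671, chromosome 6, 22288227 to 22298522, plus strand) encodes a ligand of joint tissue and bone that is known to protect cortical bone. WT libraries had it at 5.86, 2.01, 5.05 and 10.9 CPM at D0 and at 7.31, 5.61, 3.17 and 13.4 CPM at D7. The ranges shared most of their span, and replicate 4 was the highest on both days. Trem2-/- libraries had it at 2.29, 0.948, 0.835 and 1.08 CPM at D0 and at 5.74, 4.96, 9.07 and 3.50 CPM at D7. The Trem2-/- D0 libraries rested on 14 to 34 reads each and were the lowest of the study apart from replicate 1, which lay above WT D0 replicate 2. Wnt16 rose by a log2 fold change of 1.56 ± 0.40 in Trem2-/- (adjusted p = 0.00476, limma), and in WT the estimate was 0.29 ± 0.40 (adjusted p = 0.615).

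Dkk2 (ENSMUSG00000028031, chromosome 3, 132085292 to 132180304, plus strand) encodes a Dickkopf protein that binds Lrp5 and Lrp6. Its WT levels were 12.2, 3.97, 7.12 and 11.3 CPM at D0 and 9.05, 12.7, 7.72 and 9.92 CPM at D7. WT D7 replicate 2 was the highest of these 8, and the other 3 D7 libraries lay inside the D0 range. Its Trem2-/- levels were 9.27, 8.34, 2.56 and 5.72 CPM at D0 and 16.2, 14.5, 15.3 and 12.2 CPM at D7. All 4 Trem2-/- D7 libraries were above all Trem2-/- D0 libraries. Its log2 fold change was 1.16 ± 0.32 in Trem2-/- (adjusted p = 0.00733, limma) and 0.25 ± 0.32 in WT (adjusted p = 0.579).

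Dkk3 (ENSMUSG00000030772, chromosome 7, 112116017 to 112159057, minus strand) encodes the most divergent Dickkopf protein, whose effect on Wnt signalling differs between cell types. WT libraries held 80.4, 27.7, 49.2 and 180.2 CPM at D0 and 247, 303, 158 and 203 CPM at D7. WT D0 replicate 4 alone reached into the D7 range. Trem2-/- libraries held 40.0, 33.7, 36.9 and 39.4 CPM at D0 and 505, 430.1, 388 and 273 CPM at D7. The Trem2-/- D0 libraries were nearly equal, and the lowest D7 library stood far above them. Dkk3 had the highest log2 fold change of the 9 members in both genotypes, 1.71 ± 0.40 in WT (adjusted p = 0.00708, limma) and 3.35 ± 0.40 in Trem2-/- (adjusted p = 2.2e-05). As a ratio of mean CPM the rise was 2.70-fold in WT and 10.6-fold in Trem2-/-. Both calls held without each single library and under each other setting tried.

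**Figure D2:**
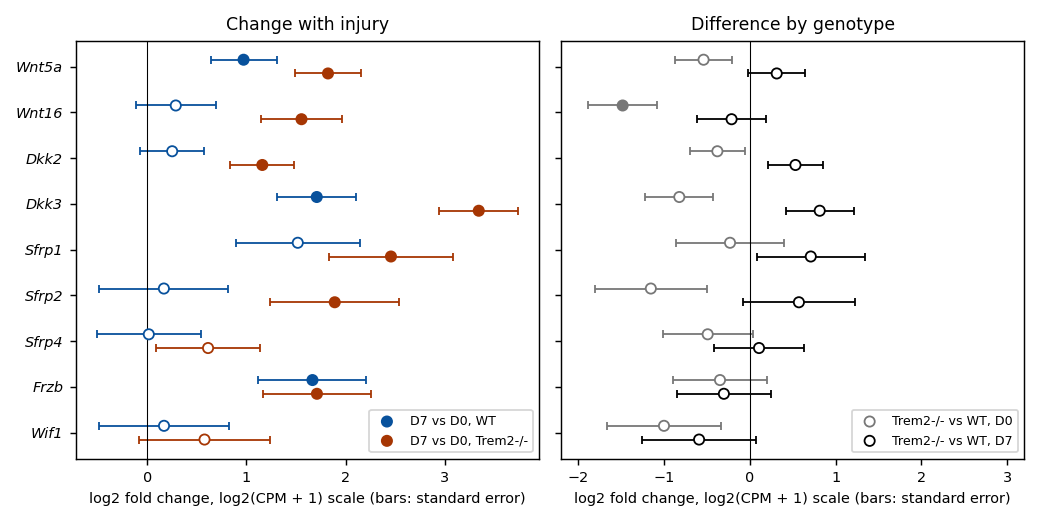
Log2 fold change of each gene (horizontal axes, log2(CPM + 1) scale) with its standard error as whiskers, for injury at left and genotype at right. Filled points passed the test (left: adjusted p under 0.05; right: unadjusted p under 0.05 with a log2 fold change over 0.32). Trem2-/- points lie to the right of WT points for all 9 genes at left, and Wnt16 at D0 is the 1 filled point at right.

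Sfrp1 (ENSMUSG00000031548, chromosome 8, 23411502 to 23449632, plus strand) encodes a secreted Frizzled-related protein that sequesters Wnts. In WT it was at 17.6, 3.97, 6.91 and 39.6 CPM at D0 and at 65.9, 68.9, 22.0 and 17.6 CPM at D7. WT D7 replicates 1 and 2 were high, and replicates 3 and 4 lay inside the D0 range. In Trem2-/- it was at 23.8, 8.72, 3.76 and 12.7 CPM at D0 and at 88.4, 46.7, 47.6 and 68.0 CPM at D7. The days did not overlap in Trem2-/-, where the log2 fold change was 2.46 ± 0.63 (adjusted p = 0.00422, limma). In WT the estimate was 1.52 ± 0.63 (adjusted p = 0.0790), and it became 2.06 (adjusted p = 0.0177) without WT D0 replicate 4.

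Sfrp2 (ENSMUSG00000027996, chromosome 3, 83766321 to 83774316, plus strand) encodes another Frizzled-related decoy, one made by fibroblasts of many tissues. WT libraries had Sfrp2 at 66.2, 14.2, 29.7 and 90.2 CPM at D0 and at 84.9, 40.2, 17.5 and 67.9 CPM at D7. The 2 WT ranges covered much the same span. Trem2-/- libraries had Sfrp2 at 45.1, 9.98, 6.98 and 27.9 CPM at D0 and at 97.9, 47.0, 117 and 38.5 CPM at D7. Trem2-/- D0 replicate 1 lay above the lowest D7 library, so these days overlapped by that library. Sfrp2 had a log2 fold change of 1.89 ± 0.65 in Trem2-/- (adjusted p = 0.0234, limma; exact permutation p = 0.0571, two-sided) and 0.17 ± 0.65 in WT (adjusted p = 0.866). The Trem2-/- call was lost without Trem2-/- D0 replicate 2 (adjusted p = 0.0661), D0 replicate 3 (0.0800), D7 replicate 1 (0.0629) or D7 replicate 3 (0.0711). Gm26771 has an exon on the opposite strand of Sfrp2, with the same limit on strand as for Wnt5a.

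Sfrp4 (ENSMUSG00000021319, chromosome 13, 19623104 to 19632994, plus strand) encodes a decoy whose loss is known to thin cortical bone. Its WT levels were 118, 26.8, 37.8 and 77.7 CPM at D0 and 73.3, 45.3, 38.6 and 76.2 CPM at D7. Every WT D7 library fell inside the D0 range. Its Trem2-/- levels were 89.4, 47.3, 10.8 and 49.4 CPM at D0 and 77.2, 62.7, 56.4 and 48.5 CPM at D7. Trem2-/- D0 again held both the highest and the lowest library of its genotype. The log2 fold change was 0.01 ± 0.52 in WT (adjusted p = 0.988, limma) and 0.61 ± 0.52 in Trem2-/- (adjusted p = 0.339).

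Frzb (ENSMUSG00000027004, chromosome 2, 80411970 to 80447625, minus strand), also called Sfrp3, encodes a decoy made by chondrocytes. In WT it was at 29.6, 3.92, 24.0 and 38.1 CPM at D0 and at 62.7, 41.4, 70.1 and 76.7 CPM at D7. The lowest D7 library was only just above the highest D0 library, and WT D0 replicate 2 was far below the rest. In Trem2-/- it was at 8.27, 39.4, 13.6 and 9.27 CPM at D0 and at 53.2, 40.7, 63.7 and 43.1 CPM at D7. Trem2-/- D0 replicate 2 stood just under the D7 range, and the other 3 D0 libraries were well under it. Frzb rose by nearly the same amount in both genotypes, 1.67 ± 0.55 in WT (adjusted p = 0.0338, limma) and 1.71 ± 0.55 in Trem2-/- (adjusted p = 0.0157). The WT call was lost without WT D0 replicate 2 (log2 fold change 1.00, adjusted p = 0.0868), WT D0 replicate 3 (0.0594), or WT D7 replicate 1 (0.0704), 3 (0.0609) or 4 (0.0801), and the Trem2-/- call without Trem2-/- D0 replicate 1 (0.0515).

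Wif1 (ENSMUSG00000020218, chromosome 10, 121033960 to 121100650, plus strand) encodes Wnt inhibitory factor, a decoy that is not related to the Sfrp family. The WT libraries read 106, 19.5, 31.1 and 145 CPM at D0 and 40.1, 24.3, 83.6 and 184 CPM at D7. Both WT groups ran from low values in replicate 2 to high values in replicate 4. The Trem2-/- libraries read 16.9, 39.8, 39.6 and 20.6 CPM at D0 and 30.7, 26.1, 92.7 and 38.4 CPM at D7. Trem2-/- D7 replicate 3 was high and the other 3 lay inside the D0 range. Its log2 fold change was 0.17 ± 0.66 in WT (adjusted p = 0.867, limma) and 0.58 ± 0.66 in Trem2-/- (adjusted p = 0.479).

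The genotypes were then set side by side within each day. At D7 no member passed the rule of the study's methods, an unadjusted p under 0.05 with a log2 fold change over 0.32 in either direction. That rule was passed by 5.72% of all genes (1.18% higher and 4.53% lower in Trem2-/-), and no gene of the table passed after Benjamini-Hochberg adjustment in limma or in edgeR (958 and 1069 genes had an unadjusted p under 0.05). Dkk3 came closest, with a log2 difference of Trem2-/- from WT of 0.81 ± 0.40 (adjusted p = 0.708, limma; exact permutation p = 0.0571, two-sided), and 3 of 4 Trem2-/- D7 libraries were above all WT D7 libraries. It passed the rule without WT D0 replicate 2, WT D0 replicate 4, WT D7 replicate 2 (log2 difference 0.96) or Trem2-/- D7 replicate 4 (0.98), with scaling to library totals, and with the D7 groups fitted alone, where Dkk2 passed too. On neither day were the genotypes free of overlap for any of the 9 members; over all genes, 3.55% were entirely higher and 4.78% entirely lower in Trem2-/- at D7, and 0.440% and 0.539% at D0. At D7 Wif1 had the most negative difference, −0.59 ± 0.66 (adjusted p = 0.892).

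At D0 the difference of Trem2-/- from WT was negative for all 9 members, with a median of −0.54 beside 0.00 over all genes. Since the 9 share libraries and vary together within them, these signs are not 9 separate observations. Marker medians at D0 were −1.59 for chondrocyte, −0.97 for osteoblast and osteocyte and −0.69 for tendon and ligament lists. Fibroblast, erythroid and endothelial lists were at −0.25, −0.039 and −0.0024, and leukocyte and skeletal muscle lists at 0.27 and 0.44. Whether the members differed from these lists was not tested. Wnt16 passed the study's rule, 1 of 9 members against 1.37% of all genes that were lower by it (0.782% were higher, 2.15% in all). Its log2 difference was −1.48 ± 0.40 (p = 0.00221 and adjusted p = 0.9996, limma; exact permutation p = 0.0571, two-sided), and its mean was 1.29 ± 0.673 CPM (SD, n = 4) in Trem2-/- against 5.97 ± 3.71 CPM in WT. Dkk3 was at −0.82 ± 0.40 (exact permutation p = 0.229) and Sfrp2 at −1.15 ± 0.65. The count of 1 rose to 7 without WT D0 replicate 2 and to 2 without WT D0 replicate 3 or Trem2-/- D0 replicate 1. Without WT D0 replicates 1 and 4 together, 7 of the 9 differences turned positive, from 0.02 for Dkk3 to 0.84 for Sfrp1, and Wnt16 was at −0.94 ± 0.44, past the rule.

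The change with injury was more positive in Trem2-/- than in WT for all 9 members, by a median of 0.91 on the log2 scale beside 0.01 over all genes. The same median was 1.39 over tendon and ligament markers and 1.17 over chondrocyte markers. It was 0.55 for osteoblast and osteocyte, 0.51 for fibroblast and 0.08 for endothelial markers. Leukocyte, skeletal muscle and erythroid markers were at −0.95, −0.62 and −0.32. Whether the members differed from these lists was not tested. The order of the members did not hold throughout: without WT D0 replicates 1 and 4 together it turned for 4 of 9 members (Sfrp1 −0.13, Sfrp4 −0.18, Frzb −0.78 and Wif1 −0.73). With single libraries left out it turned in 7 of 16 cases for Frzb and 2 of 16 for Wif1, and Frzb was at −0.020 with voom. In the test of that difference itself, the interaction of genotype and injury, Dkk3 and Wnt16 passed the study's rule, 2 of 9 members against 2.77% of all genes that were higher by it (5.02% were lower, 7.79% in all). The extra rise was 1.64 ± 0.56 for Dkk3 (adjusted p = 0.579, limma) and 1.27 ± 0.57 for Wnt16 (adjusted p = 0.608). No gene of the table passed after adjustment in limma or in edgeR (1075 and 1267 genes had an unadjusted p under 0.05). Dkk3 passed the rule without each single library. Wnt16 lost it when any of 12 libraries was left out, among them all but 1 of WT D0, and its value then ranged down to 0.96, and also with a pseudocount of 5 (0.59); the count of members ran from 1 to 5, with 5 without WT D0 replicate 2 and 4 without Trem2-/- D0 replicate 1. Without WT D0 replicates 1 and 4 together, the Dkk3 interaction was 0.80 ± 0.35, past the rule, and that of Wnt16 was 0.73 ± 0.56, not past it. Frzb had the smallest interaction, 0.05 ± 0.77.

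Levels were compared between genes as mean CPM per kilobase of exon. At D7, Dkk3 was the highest of the 9, at 67.7 ± 18.4 CPM per kb (SD, n = 4) in WT and 119 ± 28.9 in Trem2-/-, and in each genotype its lead over the next gene was larger than the larger of both SDs. That next gene was Wif1 at 34.2 ± 29.7 in WT and Sfrp2 at 34.9 ± 17.7 in Trem2-/-. At D0, the upper places were not separated by their spread: Wif1, Dkk3, Sfrp2 and Sfrp4 led in WT at 31.1, 25.1, 23.3 and 15.6 CPM per kb, and the same 4 genes, led by Wif1 and Sfrp4, held at least 10.4 CPM per kb in Trem2-/-. The ligands were the lowest in every group. Wnt5a was at 0.539 ± 0.337 CPM per kb in WT D0, 0.296 ± 0.109 in Trem2-/- D0, 1.09 ± 0.368 in WT D7 and 1.33 ± 0.147 in Trem2-/- D7. Wnt16 and Wnt5a did not differ beyond their spread in any group, and Dkk2 stood next above them. Its lead over the nearer ligand was larger than the larger SD in Trem2-/- at both days. In WT, where the nearer ligand was Wnt16, it was not.

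Spread between libraries was wide for these genes. The SD of log2(CPM + 1) over the 4 WT D0 libraries was 0.65 to 1.36 for the 9 members, with a median of 1.13 beside 0.27 for all genes. The members' median SD was 0.69 in Trem2-/- D0, 0.48 in WT D7 and 0.38 in Trem2-/- D7, beside 0.24, 0.21 and 0.13 for all genes. Of the 36 pairs of a member and a group, 35 had an SD above that of the median gene, and the exception was Dkk3 in Trem2-/- D0, at 0.11.

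The members also varied together within groups. Over the 16 libraries, each taken as its deviation from its group mean, 35 of 36 pairs of members had a positive Pearson's r, with a median of 0.618, the highest for Wnt5a with Sfrp1 (0.915) and the lowest for Sfrp1 with Wif1 (−0.0196). These values describe libraries that share depth, normalization and tissue content, and were not tested. Frzb and Wif1 formed a pair (r = 0.717) that was looser with the rest, while Wnt16 was close to Sfrp2 (0.850) and Dkk2 to Sfrp4 (0.875). Against the summed marker lists, Frzb was the member closest to the chondrocyte list (0.930) and Dkk3 to the osteoblast and osteocyte list (0.873). Every member had r of 0.552 or more with the latter list, with Wnt16 at 0.820 and Wnt5a at 0.815. Single collagens carried these sums: Col1a1, which fibroblasts also make, was 89.7% to 98.7% of the osteoblast and osteocyte sum in a library, and Col2a1 10.2% to 78.7% of the chondrocyte sum (median 68.6%). Without them r was 0.906 for Frzb with the chondrocyte list and 0.651 for Dkk3 with the osteoblast and osteocyte list. Frzb (0.851), Wif1 (0.765) and Wnt16 (0.732) then followed the osteoblast and osteocyte list more closely than Dkk3. Dkk3 was then no closer to that list than to the chondrocyte list (0.662) or the tendon and ligament list without Thbs4 (0.680). Col3a1 was 15.5% to 82.6% of the fibroblast sum (median 61.6%). Without Col3a1, r with the fibroblast list fell for all members but Wif1 (0.286 to 0.329). It went from 0.684 to 0.291 for Dkk3 and from 0.696 to 0.260 for Wnt5a. Every member ran against the leukocyte list, from −0.121 for Wif1 to −0.765 for Wnt5a. The same held for the erythroid list, from −0.165 for Sfrp1 to −0.703 for Frzb. What part tissue content plays in the members' levels was not tested.

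**Figure D3:**
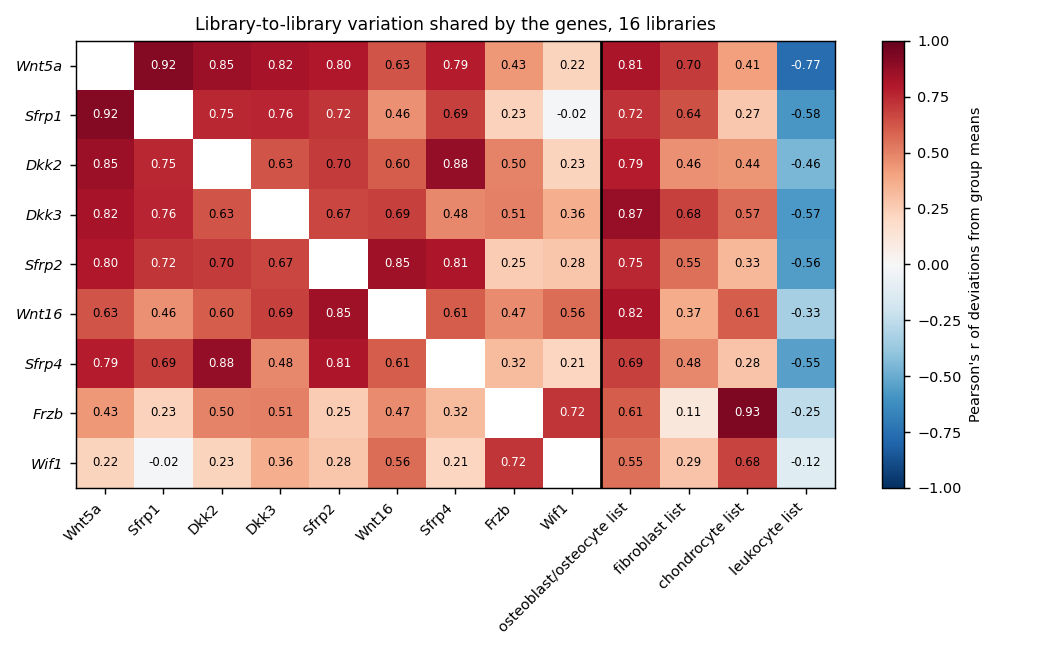
Pearson's r between the deviations of 2 genes, or of a gene and a summed marker list, from their group means over 16 libraries (colour scale from −1 to 1, values printed in the cells). The block of Wnt5a, Sfrp1, Dkk2, Dkk3, Sfrp2, Wnt16 and Sfrp4 at upper left holds r of 0.46 or more, and Frzb and Wif1 stand apart with r of 0.72 to each other.

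Connective tissue markers rose beside the members. All 8 chondrocyte markers passed the test upwards in both genotypes, as did 4 of 6 osteoblast and osteocyte markers in WT and 5 of 6 in Trem2-/-, and 5 of 8 fibroblast markers in WT and 7 of 8 in Trem2-/-, where 1 fell. Tendon and ligament markers rose for 1 of 5 in WT and 5 of 5 in Trem2-/-. Over all genes, 15.9% rose and 12.6% fell in WT, and 26.0% rose and 27.2% fell in Trem2-/-. Of the leukocyte markers, 5 of 6 fell in WT and 6 of 6 in Trem2-/-, all 4 erythroid markers fell in both, skeletal muscle markers fell for 1 of 6 in WT and 6 of 6 in Trem2-/-, and 0 of 5 endothelial markers were called in either. Among the markers, Matn1 of the chondrocyte list was at 0 in 1 library and no other was at 0 in any. Bglap, Mepe and Hbb-bt were not analysed here.

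Divided by the summed fibroblast markers, the median ratio was lower at D7 than at D0 for 9 of 9 members in WT and 8 of 9 in Trem2-/-, and the D7 libraries lay entirely below the D0 libraries for 2 of 9 in each (Dkk2 and Sfrp4). On the same ratio, 84.8% of all genes tested lay entirely below in WT and 94.9% in Trem2-/-. Dkk3 was the exception in Trem2-/-, where it went from a median of 6.70 CPM per 1000 CPM of fibroblast markers (range 3.18 to 8.32) at D0 to 7.75 (6.22 to 9.41) at D7, with overlapping ranges. In WT its median was 7.58 (3.78 to 12.5) at D0 and 6.06 (4.75 to 6.69) at D7. Wnt5a went from 0.354 (0.225 to 0.520) to 0.205 (0.185 to 0.228) in Trem2-/-, and Sfrp4 from 6.47 (2.43 to 15.7) to 1.17 (1.02 to 1.44). Against the chondrocyte markers, 6 of 9 members lay entirely lower at D7 in each genotype, where 95.4% of all genes did in WT and 97.4% in Trem2-/-. Against the osteoblast and osteocyte markers it was 7 of 9 in WT and 9 of 9 in Trem2-/-, beside 90.5% and 98.6% of all genes. The markers themselves changed with injury, so these ratios are not levels per cell, and most genes divided by them were lower at D7. Col3a1 made up a median of 61.6% of the fibroblast sum (15.5% to 82.6%), so the fibroblast ratios rest in large part on it. Its mean went from 5262 to 27591 CPM in WT and from 1960 to 37891 CPM in Trem2-/-.

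**Figure D4:**
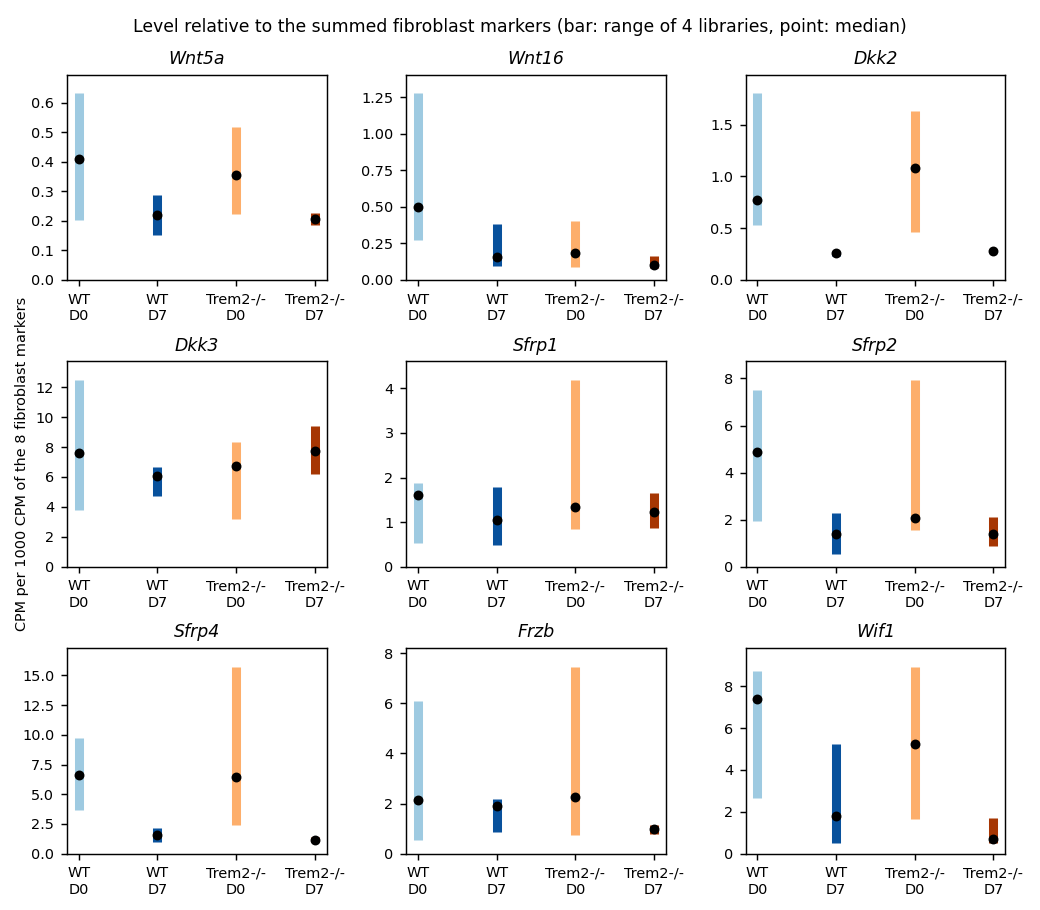
CPM of each gene per 1000 CPM of the 8 summed fibroblast markers (vertical axes from 0, one scale per gene), with the range of 4 libraries as a bar and the median as a point. D7 medians lie below D0 medians in every panel of WT and in every panel of Trem2-/- but that of Dkk3. Col3a1 made up a median of 61.6% of the marker sum.

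For each member, the 3 genes with the most similar pattern were taken by Pearson's r of log2(CPM + 1) over the 16 libraries, among the 10552 genes whose mean reached 5 CPM. Dkk3 was followed most closely by C1qtnf6, Cthrc1 and Angptl2 (r = 0.990, 0.990 and 0.989), and Wnt5a by Aspn, Prrx2 and Meis3 (0.983, 0.982 and 0.982). For Sfrp1 they were Mfap5, Col14a1 and Loxl1 (0.978, 0.954 and 0.952), and for Dkk2 Ogn, Nbl1 and Lrrn4cl (0.945, 0.935 and 0.933). Frzb ran with Comp, Ngef and Mdfi (0.944, 0.939 and 0.937), where Comp is a cartilage matrix protein, and Wif1 with Cilp2, Kcnq5 and Mfi2 (0.948, 0.933 and 0.932). Sfrp4 ran with the complement genes C2 and Serping1 and with Entpd2 (0.940, 0.932 and 0.924), Sfrp2 with Epha3, Ndnf and Itgbl1 (0.923, 0.902 and 0.891), and Wnt16 with Ptprd, Cbfb and Camk4 (0.914, 0.910 and 0.905). These r describe likeness over libraries that share the same 4 groups.

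The rest of the pathway was read from lists of 74 further genes, of which 58 were tested. Between D0 and D7, 22 rose and 1 fell in WT, and 32 rose and 3 fell in Trem2-/-, with medians of 0.37 and 0.64 on the log2 scale. Of all genes, 15.9% rose and 12.6% fell in WT, and 26.0% rose and 27.2% fell in Trem2-/-, with a median of −0.04 in each. Among 9 other Wnt ligands tested, 3 rose in WT and 5 in Trem2-/-. Wnt5b, the closest relative of Wnt5a, rose by 1.11 ± 0.34 in WT and by 2.24 ± 0.34 in Trem2-/- (adjusted p = 0.0253 and 9.41e-05, limma). Wnt7b, known for bone formation, was at 0 to 2.78 CPM in the 8 D0 libraries and at 2.34 to 6.71 CPM in the 8 D7 libraries; the 0 was in Trem2-/- D0 replicate 4, where it allows up to 0.232 CPM. Its log2 fold change was 1.70 ± 0.33 in WT and 1.88 ± 0.33 in Trem2-/- (adjusted p = 0.00295 and 0.000316). Of 3 other secreted antagonists tested, Sfrp5 fell by 1.35 ± 0.41 in Trem2-/- (adjusted p = 0.0115), and Notum, an enzyme that removes the Wnt lipid, rose there by 1.18 ± 0.46 (adjusted p = 0.0403). Neither passed in WT, at −0.92 ± 0.41 and 0.49 ± 0.46.

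Receptors rose more widely than they fell. Of 17 tested, 8 rose in WT and 12 in Trem2-/-, and none fell in either (median log2 fold change 0.59 and 1.06). Over all genes, 15.9% rose in WT and 26.0% in Trem2-/-. Ror2, the Wnt5a receptor, rose by 1.99 ± 0.33 and 2.75 ± 0.33 in WT and Trem2-/- (adjusted p = 0.00127 and 2.33e-05, limma), and Ptk7, a pseudokinase co-receptor, by 1.91 ± 0.36 and 3.05 ± 0.36 (adjusted p = 0.00248 and 2.2e-05). Lrp5 and Lrp6 are the co-receptors that Dkk2 binds. Lrp6 rose by 0.81 ± 0.26 and 1.06 ± 0.26 (adjusted p = 0.0312 and 0.00320), and Lrp5 was at 0.27 ± 0.22 and 0.22 ± 0.22 (adjusted p = 0.356 and 0.407); the difference between them was not tested. Wls, which carries Wnts to the cell surface, rose by 0.76 ± 0.18 and 1.51 ± 0.18 (adjusted p = 0.0074 and 2.2e-05), and Porcn, which attaches their lipid, by 1.05 ± 0.24 in Trem2-/- (adjusted p = 0.00202) with 0.38 ± 0.24 in WT. In the R-spondin axis, which tunes receptor turnover, 4 of 7 rose in WT and 6 of 7 in Trem2-/-, with Lgr4 at 0.73 ± 0.19 and 0.88 ± 0.19 and Znrf3 at 0.66 ± 0.18 and 1.01 ± 0.18.

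Of 14 beta-catenin transducers, 3 rose and 1 fell in WT and 3 rose and 2 fell in Trem2-/- (median log2 fold change 0.09 and 0.14). Over all genes, 15.9% rose and 12.6% fell in WT, and 26.0% rose and 27.2% fell in Trem2-/-. The transducer counts were near or below those shares. Gsk3b, a kinase that marks beta-catenin for decay, rose by 0.42 ± 0.08 and 0.66 ± 0.08, and Dvl3, which relays the Frizzled signal, by 0.50 ± 0.15 and 0.90 ± 0.15. Gsk3a, the other Gsk3 gene of the list, fell, at −0.27 ± 0.08 and −0.36 ± 0.08 (adjusted p = 0.0188 and 0.00133, limma). Lef1, a beta-catenin partner that lymphocytes also make, fell by 1.12 ± 0.26 in Trem2-/- (adjusted p = 0.00228, limma) and was at −0.53 ± 0.26 in WT. Of 6 target genes, 3 rose in each genotype. Axin2, the feedback gene most used as a readout of beta-catenin, was at 10.1, 5.50, 5.63 and 8.39 CPM in WT D0 and 9.33, 6.80, 5.93 and 9.32 CPM in WT D7, and at 5.17, 7.14, 5.31 and 7.72 and 10.2, 7.17, 8.51 and 9.26 CPM in Trem2-/- D0 and D7. Its days overlapped in both genotypes, and its log2 fold change was 0.09 ± 0.20 and 0.42 ± 0.20 (adjusted p = 0.757 and 0.0838). Wisp1, a matrix-associated target, rose by 1.95 ± 0.41 and 3.29 ± 0.41 (adjusted p = 0.00426 and 2.94e-05), and Nkd2, a feedback inhibitor, by 1.21 ± 0.33 and 1.63 ± 0.33.

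**Figure D5:**
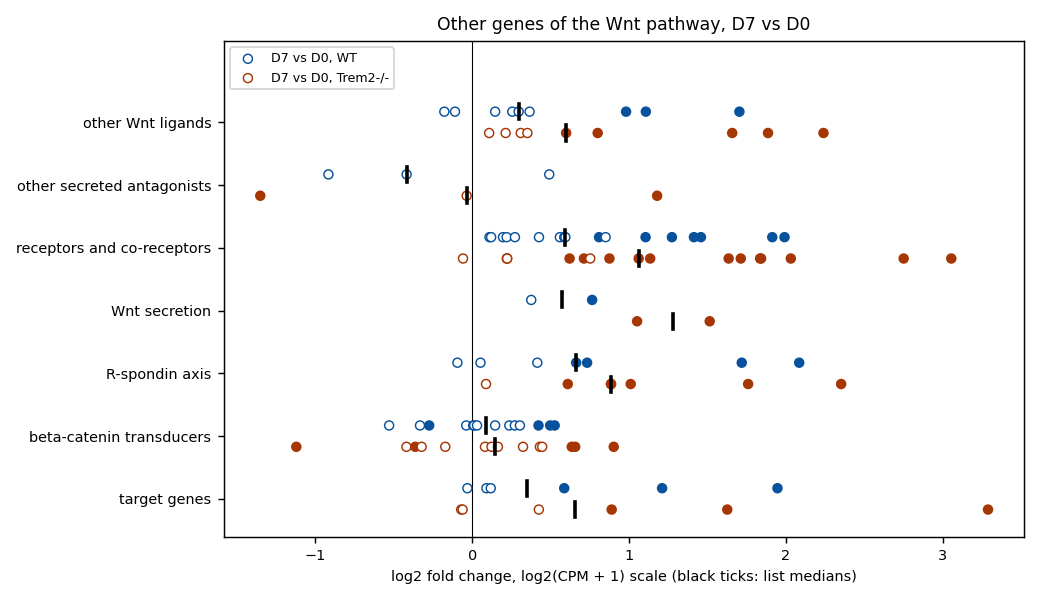
Log2 fold change from D0 to D7 (horizontal axis, log2(CPM + 1) scale) of each tested gene of 7 pathway lists, 1 row per list, WT above and Trem2-/- below; filled points passed at an adjusted p under 0.05 and black ticks are list medians. Receptors and R-spondin axis genes lie mostly right of 0, and beta-catenin transducers lie around it.

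By genotype, 3 of the 58 genes passed the study's rule at D7 and 3 at D0, beside 5.72% and 2.15% of all genes, so the count at D7 was near the background. At D7 Wls was higher in Trem2-/- by 0.45 ± 0.18, and Lef1 and Tcf7 were lower, Lef1 by a log2 difference of −1.05 ± 0.26. At D0 Wnt5b, Znrf3 and Wisp1 were lower, at −1.08 ± 0.34, −0.38 ± 0.18 and −0.95 ± 0.41. By the rule, 1.37% of all genes were lower at D0. For the interaction 5 of 58 passed, all more positive in Trem2-/- (Wnt5b, Ptk7, Wls, Lgr5 and Wisp1), from 0.70 for Lgr5 to 1.34 for Wisp1. Of all genes, 2.77% were higher by the rule and 5.02% lower, 7.79% in all. Whether 5 of 58 exceeds the share of 2.77% was not tested. None of the 58 passed after adjustment over all genes.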

How the data were processed

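Signal values were deposited as a table of CPM that the authors made with STAR alignment to mm10 (GRCm38), featureCounts gene counts and edgeR TMM scaling, per the labels and the study's methods. Software versions, the annotation, the strand setting and the low-count filter are not given in the sources used here. All values (100%) were whole multiples of 1 read within 0.01 reads, so read counts could be recovered from the deposited CPM. A gene listed 2 times with the same values was used 1 time, and 0 columns were left unmapped. No column held comparisons made by the authors.

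Genes that reached 1 CPM in 4 or more of the 16 libraries were fitted with limma 3.58.1 (R 4.3.3; lmFit, contrasts, eBayes with trend) on log2(CPM + 1), the 4 groups as 1 factor, with Benjamini-Hochberg adjustment over all genes. On this scale the change of low genes is understated. Injury was called at an adjusted p under 0.05, and genotype and interaction by the study's rule (unadjusted p under 0.05, log2 fold change over 0.32 in either direction). Exact permutation tests used all 70 assignments of 4 against 4 (scipy 1.17.1). The recovered reads were tested with edgeR 4.0.16 (quasi-likelihood), which called 3655 genes in WT and 7037 in Trem2-/- for injury, where limma called 3752 and 7009. The fits were checked on simulated data, where every gene had the same spread setting and was drawn on its own. That check does not cover genes that vary as widely, or as much together, as the members did. For genotype at D0, 0 genes passed after adjustment by limma or edgeR, and 385 and 554 had an unadjusted p under 0.05.

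Every member was named, with up to 2 genes per pathway list by smallest p for injury over both genotypes plus Axin2, Lef1, Lrp5, Lrp6 and Ror2. Tcf7, Lgr5 and Gsk3a were named after their values were seen. Members and lists were chosen with earlier results of these data known. No 75-base stretch of a member's transcripts occurs in another gene (GENCODE M21), whose coordinates are used. Libraries of 1 group never agreed within sampling noise. Marker lists without their gene of highest mean CPM were added after seeing the data. Alternatives are listed in the closing section.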

Additional observations from a re-analysis of the deposited data

Results flagged for a closer look

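Of 36 sets of 4 libraries (9 members in 4 groups), 1 held a library far from the rest, where chance alone gives about 1.8. Wnt16 in Trem2-/- D0 replicate 1 was at 2.29 CPM beside 0.835 to 1.08 CPM in the other 3, a gap of 0.83 of the range. In the test of the difference itself, the change with injury was larger in Trem2-/- than in WT by 1.64 (log2) for Dkk3 and by 1.27 for Wnt16, neither of which passed after adjustment over all genes by limma (adjusted p = 0.579 and 0.608).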

How the results depend on the processing

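Members were called again with a pseudocount of 0.1 or 5, no filter, quantile, median-of-ratios or library total scaling, a replicate block, no trend, voom, edgeR, the compared groups alone (which gives no interaction) and each library left out. Chosen after seeing the data, WT D0 replicates 1 and 4 were also left out together. Of the repeats of single member values, 1137 kept direction and call, 45 turned direction (all without a call), 40 lost a call and 29 gained one; the cause was not tested. Library total scaling shifted the median of all genes by −0.25 in WT and −0.26 in Trem2-/- for injury.

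Members called for injury in WT fell from 3 to 1 with edgeR and with the compared groups alone, and ran from 1 to 4 without each library; in Trem2-/- they ran from 6 to 7. For genotype at D7 they were 1 with library total scaling, 2 with the compared groups alone, 1 without WT D0 replicates 1 and 4 together, and 0 to 1 without each library. At D0 they were 2 with library total scaling, 2 with the replicate block, 2 with edgeR and 1 to 7 without each library. For the interaction they were 1 without WT D0 replicates 1 and 4 together and 1 to 5 without each library. The replicate block called 2 members for injury in WT and 7 in Trem2-/-; by genotype it called 0 at D7 against 2 at D0, with 3 called for interaction. The WT injury call of Frzb was lost under the block (adjusted p = 0.0502, limma). Same-numbered libraries had deviations with r of 0.046 to 0.406 between the WT days, −0.196 to 0.106 between the Trem2-/- days, −0.0794 to 0.38 between genotypes at D7 and −0.509 to 0.166 at D0; no comparison had all 4 over 0.1, so the libraries were taken to share only a number.

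For injury in WT, library total scaling turned Sfrp2 to −0.11, Sfrp4 to −0.26 and Wif1 to −0.11, and Sfrp4 was −0.0092 with quantile scaling and −0.16 with edgeR. Without each library, Wnt16 ran from −0.063 to 0.60, Dkk2 from −0.036 to 0.44, Sfrp2 from −0.31 to 0.60, Sfrp4 from −0.33 to 0.37 and Wif1 from −0.35 to 0.62. For genotype at D7, Wnt16 ran from −0.50 to 0.095 and Sfrp4 from −0.068 to 0.25; at D0, Sfrp1 from −0.70 to 0.31 and Sfrp4 from −0.88 to 0.10; for the interaction, Frzb from −0.29 to 0.71 and Wif1 from −0.045 to 0.92. Without WT D0 replicates 1 and 4 together, the D0 difference was 0.13 for Wnt5a, 0.12 for Dkk2, 0.016 for Dkk3, 0.84 for Sfrp1, 0.29 for Sfrp4, 0.47 for Frzb and 0.14 for Wif1, and the interaction was −0.13 for Sfrp1, −0.18 for Sfrp4, −0.78 for Frzb and −0.73 for Wif1. Frzb's interaction was −0.020 with voom.

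With 4 libraries a group and a median SD of 1.13 (log2) for the members in WT D0, small changes of these genes were not detectable. Wnt16 in Trem2-/- D0 rested on 14 to 34 reads a library.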
